A study of Rattus norvegicus with 9 samples.

Results

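The cytochrome P450 enzymes of families 1, 2 and 3, the main drug-metabolising P450s, were examined in rat liver with and without follicle stimulating hormone (FSH). Members were taken by symbol, as every gene of the count table whose name starts with Cyp, a family number of 1, 2 or 3, a subfamily letter and a gene number, which gave 34 of 24496 genes in 16 subfamilies. Of these, 23 had enough counts to be tested and 11 did not, and 5 of the 11 (Cyp2b21, Cyp2c7, Cyp2g1, Cyp2j16 and Cyp2w1) were listed at 0 in all 9 libraries. Cyp2b1, Cyp2a2 and Cyp2j3 were not analysed here.

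The study asked what FSH does to the liver once ovarian function is lost. All 9 animals were female wild-type Wistar rats, given a western diet from 10 weeks of age for 6 weeks, then ovariectomised, and treated with degarelix, which blocks the pituitary receptor for gonadotropin-releasing hormone. In 4 of them an osmotic pump delivered FSH at 6 ug/kg/day (the FSH group), and in the other 5 the pump held vehicle only (the vehicle group, labelled degarelix-only), so the controls also lacked ovaries and carried degarelix. Food was restricted for 12 days to hold body weight, offered freely for 7 days and withdrawn for 4 hours before livers were collected at 19 weeks of age. There was no group with ovaries and none without degarelix. Each library came from a single rat.

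Library totals were 19295580 to 28672439 counts in the vehicle group and 23430807 to 27008941 in the FSH group. Values are given as CPM, the count per 1000000 of the scaled library total, without correction for transcript length, so levels are compared between libraries and not between genes. A floor of 3 counts corresponded to 0.106 to 0.159 CPM, a limit that covers counting error only. The liver label was met by the hepatocyte markers: 8 genes summed to 202033 to 249217 CPM in the vehicle group and 179471 to 282984 in the FSH group. Genes of adjacent tissues were low but not absent. The 8 in the table summed to 15.1 to 50.5 CPM with vehicle and 26.8 to 55.1 CPM with FSH. Except in vehicle 3, most of this was the pancreas gene Cpa1, at 5.65 to 42.6 CPM with vehicle and 17.6 to 50.4 CPM with FSH. In vehicle 3, which had the lowest sum, Cpa1 was at 5.65 CPM and Cela1, another pancreas gene, at 5.55 CPM. Only the kidney gene Umod was listed at 0 throughout. None of the marker genes of other cells was called in edgeR (Clec4g, Col3a1 and Hbb were in DESeq2), and several lists had most fold changes on one side. The summed level of 7 stellate cell and fibroblast genes was 214 to 280.5 CPM in the vehicle group and 169.5 to 203 in the FSH group, without overlap, with fold changes below 0 in 7 of 7. Most of this sum was Col3a1, at 141 to 193 CPM with vehicle and 101 to 129 CPM with FSH. It was the only 1 of the 7 genes whose groups did not overlap, beside 1.92% of all tested genes wholly below. For 4 erythroid genes the sums, made up mostly of Hbb, were 75.9 to 157 CPM against 121 to 490.1, with 4 of 4 above 0. For 7 endothelial genes they were 180.1 to 241 CPM against 209 to 269, with 6 of 7 above 0. In 2 of these 7, Clec4g and Stab1, the FSH libraries lay wholly above, beside 2.19% of all tested genes. At an unadjusted p of 0.05 in edgeR 3 of the 7 were higher, beside 6.42%. All 3 tested neutrophil genes and 4 of 5 lymphoid genes were above 0 too, with overlapping sums of 1.12 to 3.47 against 1.27 to 3.85 CPM and 10.6 to 18.9 against 13.6 to 18.2 CPM. The part of these cells in the P450 values was not tested. In whole tissue, fewer cells of a type and less RNA per cell cannot be told apart.

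Microsomal P450s of these families are haem enzymes of the endoplasmic reticulum that insert an oxygen atom into drugs, steroids and fatty acids, with electrons supplied by the reductase Por. Families 1, 2b and 3a are classically induced through the receptors Ahr, Car (Nr1i3) and Pxr (Nr1i2), while several rat 2c, 2a and 3a genes are set by the sex-specific pattern of growth hormone secretion. Many are also zoned, with the highest levels around the central vein of the liver lobule.

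No member differed between the groups at an adjusted p of 0.05. The test was edgeR's quasi-likelihood F-test with Benjamini-Hochberg adjustment over the 11924 genes tested, of which 0.0335% were called, 3 higher (0.0252%) and 1 lower (0.00839%) with FSH. Adjusted p-values of the 23 members ran from 0.334 for Cyp2b3 to 0.991 for Cyp3a18. At an unadjusted p of 0.05, 3 members passed in edgeR, namely Cyp2j4 and Cyp2d5 with higher and Cyp2b3 with lower levels in the FSH group. That is 13.0% of the members beside 11.6% of all tested genes, so the members' share was near the background. In DESeq2 no member was called either, beside 1.64% of the genes with an adjusted p. There 4 members had an unadjusted p below 0.05. The share of all genes below that p in DESeq2 was not taken, so this count cannot be weighed.

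Fitted changes of the members lay on both sides of 0. The log2 fold change of FSH over vehicle was above 0 in 14 members and below 0 in 9, beside 50.5% above 0 among all tested genes, and the median was 0.03 beside 0.00 for all tested genes. The lowest value was -0.67 for Cyp2c13 and the highest was 0.46 for Cyp2j4. The FSH libraries lay wholly above the vehicle libraries in 1 member, Cyp2d5, and wholly below in none, beside 2.19% and 1.92% of all tested genes, or 4.11% in either direction.

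**Figure D1:**
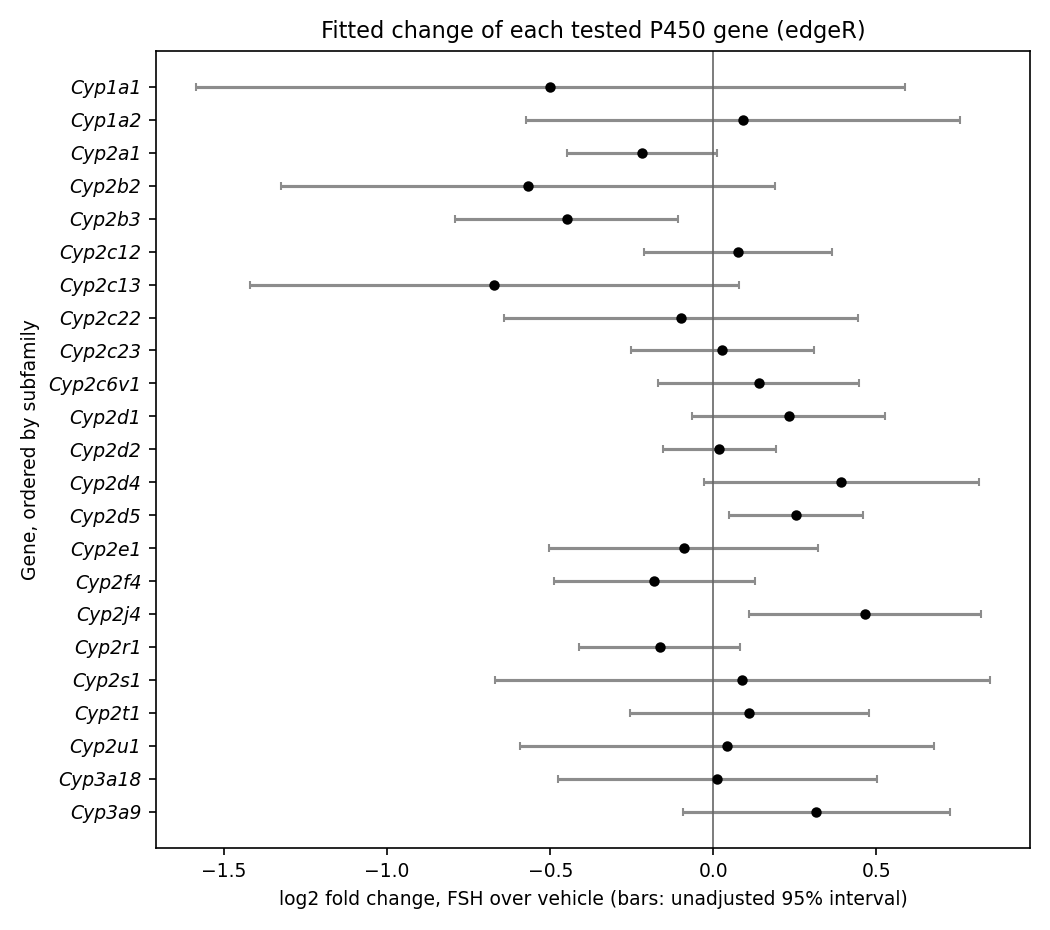
Fitted log2 fold change of FSH over vehicle (horizontal axis) for the 23 tested P450 genes, ordered by subfamily; points are edgeR estimates and bars are unadjusted 95% intervals. The estimates run from -0.67 to 0.46, and the intervals of Cyp2b3, Cyp2d5 and Cyp2j4 leave out 0.

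**Figure D2:**
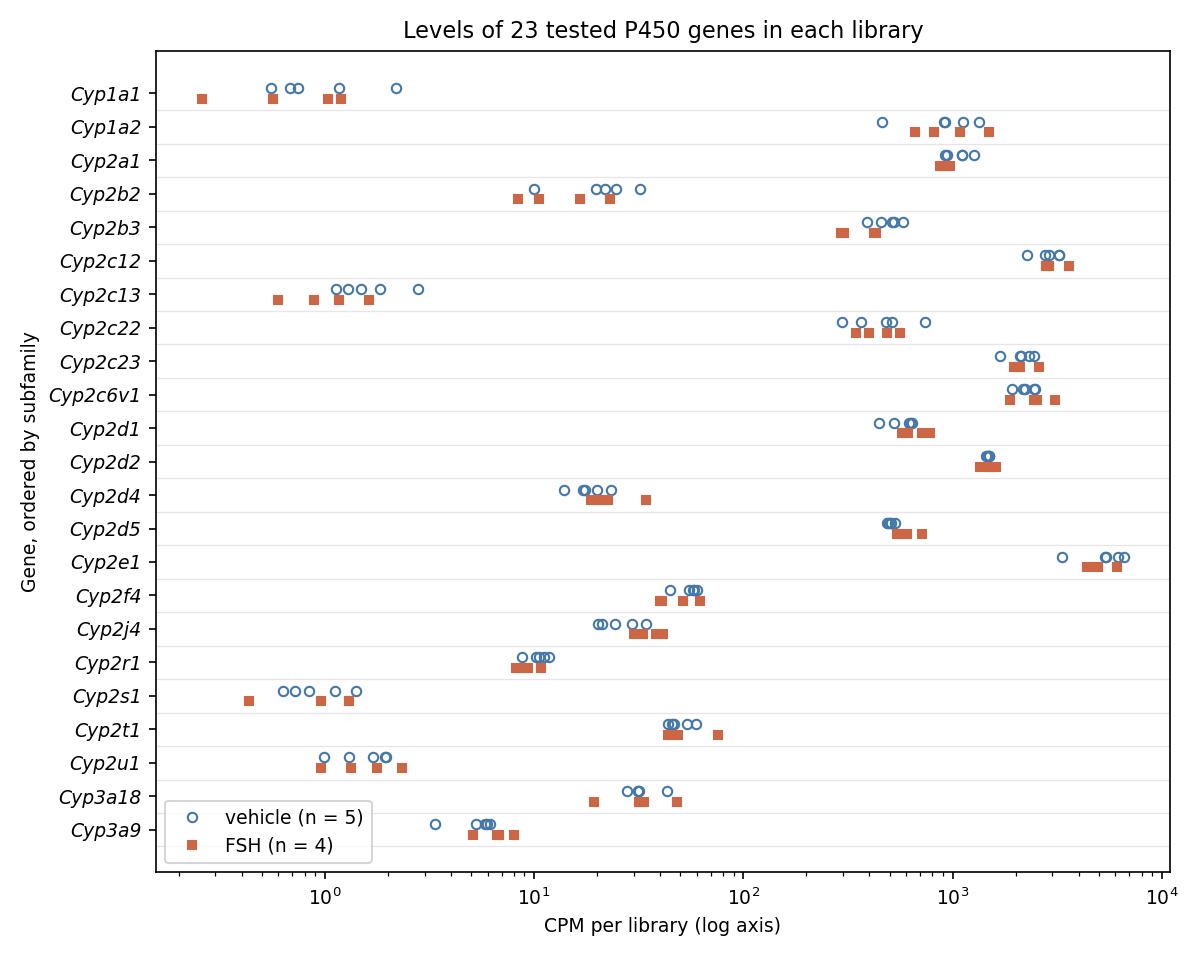
Level of each tested P450 gene in each library in CPM (horizontal log axis), with vehicle and FSH libraries marked separately and genes ordered by subfamily. The libraries of both groups interleave for all genes shown except Cyp2d5, and the spread among libraries is narrow for Cyp2d2 and wide for Cyp1a1.

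The members' combined level differed between the groups by less than the spread between animals. Summed over families 1 to 3, the 5 vehicle libraries had 20006, 18735, 19494, 14750.0 and 18957 CPM and the 4 FSH libraries 21090.0, 18038, 17257 and 17434 CPM. Means were 18388 ± 2093 (SD, n = 5) and 18455 ± 1788 (SD, n = 4), a log2 ratio of 0.01, and the sums made up 1.53 to 1.99% of all counts in the vehicle group and 1.72 to 1.97% in the FSH group. Vehicle 4 was the lowest of all 9 libraries and FSH 1 the highest. By count, subfamily 2c was the largest part of this sum, with 7730.5 ± 895 CPM in the vehicle group (SD, n = 5) and 8123 ± 586 in the FSH group (SD, n = 4). Subfamily 2e, the single gene Cyp2e1, followed with 5369.8 ± 1250.1 CPM and 5041 ± 731 CPM. How reads shared by closely similar genes were handled is not stated in the sources used here, and its effect on genes and sums of subfamilies 2b, 2c, 2d and 3a was not tested.

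**Figure D3:**
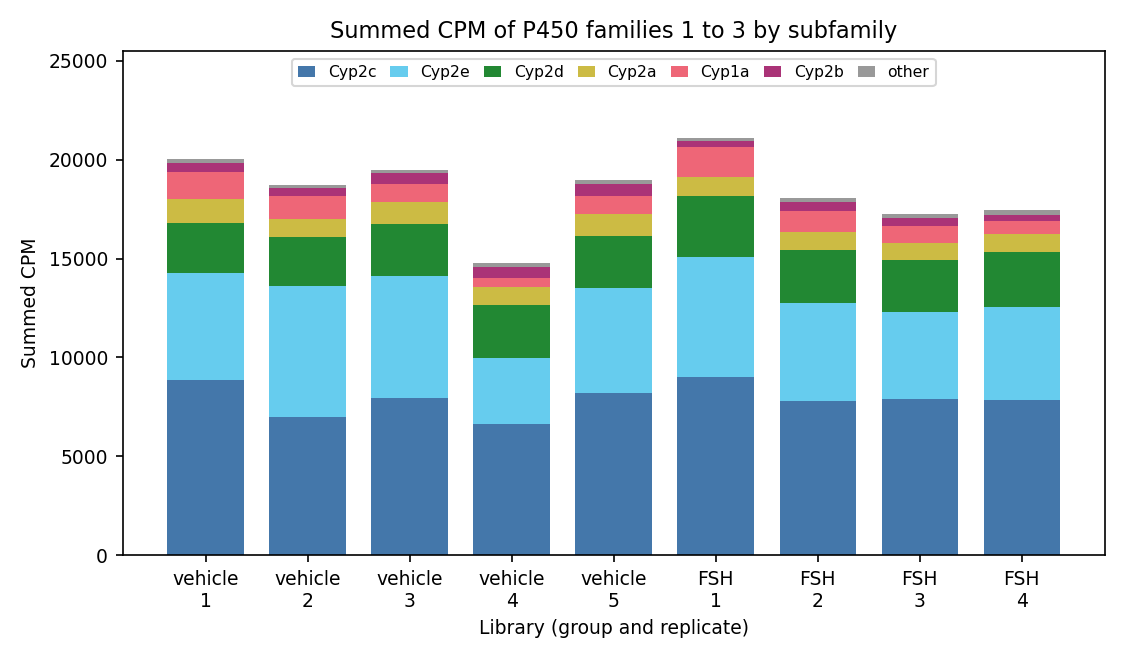
Summed CPM of families 1 to 3 in each library (vertical axis, from 0), stacked by subfamily, with the 5 vehicle libraries followed by the 4 FSH libraries. Vehicle 4 has the lowest sum, 14750.0 CPM, and FSH 1 the highest, 21090.0 CPM, and subfamilies 2c and 2e fill most of each bar.

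Family 1 showed no difference beyond the spread between animals. Cyp1a2, a constitutive liver enzyme that oxidises caffeine and aromatic amines, had 1338, 1126, 906, 461 and 922 CPM in the vehicle libraries and 1493, 1081, 819 and 660.1 CPM in the FSH libraries. The ranges overlapped, with vehicle 4 lowest and FSH 1 highest, and the log2 fold change of Cyp1a2 was 0.09 (SE 0.30, 95% interval -0.57 to 0.76, adjusted p = 0.934). Its sign turned when FSH 1 (-0.16) or vehicle 4 (-0.09) was left out. Cyp1a1, which is low in liver until Ahr is activated, had 0.552 to 2.20 CPM in the vehicle group and 0.259 to 1.20 in the FSH group. Its log2 fold change of -0.50 (SE 0.49, adjusted p = 0.746) rested on 6 to 61 counts per library and was -0.05 without vehicle 2, the highest library. Cyp1b1, mostly an extrahepatic steroid hydroxylase, had 0 to 7 counts per library and was not tested. Of the other Ahr targets fixed as a list, 2 of the 3 in the table were tested and neither was called in edgeR or DESeq2: Tiparp, a feedback repressor of Ahr, had a log2 fold change of 0.34 (SE 0.16, adjusted p = 0.441) and Nqo1, a quinone reductase, 0.30 (SE 0.31, adjusted p = 0.757).

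Of the sex-dependent genes, the female-specific Cyp2c12 was well measured and the male-specific Cyp2c11 was near the floor in both groups. Cyp2c12, the steroid sulphate hydroxylase that marks female rat liver, had 3224, 2260.1, 2878, 2754 and 3230.4 CPM in the vehicle libraries and 3615, 2802, 2875 and 2806 CPM in the FSH libraries. FSH 1 was the highest of all 9 and the other FSH libraries lay inside the vehicle range. The log2 fold change was 0.08 (SE 0.13, 95% interval -0.21 to 0.36, adjusted p = 0.863). Cyp2c11, the testosterone hydroxylase that dominates male rat liver, had counts of 0, 4, 1, 10 and 3 in the vehicle libraries and 0, 1, 0 and 8 in the FSH libraries. Most of these lie at or below the floor of 3 counts, in both groups, so no fold change is given. Cyp2c13, another male-predominant steroid hydroxylase, stayed within 28 to 71 counts in the vehicle group and 15 to 42 counts in the FSH group. In CPM these were 1.83, 1.30, 1.13, 2.80 and 1.49 with vehicle and 0.596, 0.893, 1.62 and 1.17 with FSH, with 2 FSH libraries below the vehicle range, and the log2 fold change was -0.67 (SE 0.34, 95% interval -1.42 to 0.08, adjusted p = 0.485).

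The stretches upstream of these 3 genes are shown because the genes are 1 subfamily on 1 chromosome with opposite sex patterns. They are the 250 bases before the annotated start, 5′ to 3′ on the gene's strand, from RefSeq (build GRCr8, which differs from the rn6 build named for the counts). Capitals mark TATAAA or its reverse complement.
Cyp2c12, chr1:248677035-248677284, minus strand: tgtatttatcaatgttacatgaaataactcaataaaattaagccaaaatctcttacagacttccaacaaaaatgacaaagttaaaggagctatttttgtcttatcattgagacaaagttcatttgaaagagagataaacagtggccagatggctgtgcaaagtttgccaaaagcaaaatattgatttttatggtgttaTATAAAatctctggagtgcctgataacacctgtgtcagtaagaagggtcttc
Cyp2c13, chr1:248787189-248787438, minus strand: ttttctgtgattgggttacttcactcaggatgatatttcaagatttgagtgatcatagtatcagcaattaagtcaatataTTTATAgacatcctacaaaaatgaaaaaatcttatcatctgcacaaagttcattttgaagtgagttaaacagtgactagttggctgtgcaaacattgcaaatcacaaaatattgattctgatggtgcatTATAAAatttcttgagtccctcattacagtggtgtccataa
Cyp2c11, chr1:246174966-246175215, plus strand: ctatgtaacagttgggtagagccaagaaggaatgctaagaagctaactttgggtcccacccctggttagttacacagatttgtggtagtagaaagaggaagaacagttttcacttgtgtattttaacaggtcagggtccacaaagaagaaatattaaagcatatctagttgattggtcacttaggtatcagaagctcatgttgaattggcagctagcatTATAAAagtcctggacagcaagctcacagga
All 3 hold a TATAAA on the gene's own strand, which begins 52 bases before the start in Cyp2c12, 41 in Cyp2c13 and 31 in Cyp2c11. Cyp2c13 holds a second match, on the other strand. Between the Cyp2c12 and Cyp2c13 stretches 166 of 242 aligned columns were identical (68.6%), 51 were mismatched and 25 held a gap.

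Among the remaining sex-dependent members, Cyp2a1, a female-predominant testosterone hydroxylase, had 1261, 923, 1112, 944 and 1105 CPM in the vehicle libraries and 969.5, 905, 869 and 932 CPM in the FSH libraries. The FSH libraries sat at the lower end, 2 of them below every vehicle library, and on unscaled library totals all 4 were. Separation on unscaled totals was looked at in the members only, so the share of all tested genes is not known. The means were 1069 ± 139 (SD, n = 5) and 919 ± 42.7 (SD, n = 4), with a log2 fold change of -0.22 (SE 0.10, 95% interval -0.45 to 0.01, adjusted p = 0.459). Cyp2c7, also described as female-predominant, was listed at 0 in all 9 libraries, and whether its reads were assigned to another 2c gene was not tested. Cyp3a2, a male-predominant 3a enzyme, had 1 to 4 counts in every library and was not tested.

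The growth hormone pathway that controls this pattern was taken as a list of 13 genes, all tested, with none called in edgeR or DESeq2. Of these, 9 had fold changes above 0 and 4 below, beside 50.5% above 0 among all tested genes, and the median was 0.08. The 4 below, named after their values were seen, were Bcl6 (-0.69), Igfals (-0.08), Igf1 (-0.03) and Cux2 (-0.03). At an unadjusted p of 0.05, 5 were higher with FSH and none lower in edgeR, beside 6.42% and 5.14% of all tested genes. Socs2, a feedback inhibitor of growth hormone signalling, had 18.3, 4.36, 21.2, 32.4 and 29.1 CPM in the vehicle libraries and 38.9, 31.5, 82.0 and 69.1 in the FSH libraries, a log2 fold change of 1.40 (SE 0.47, adjusted p = 0.321). Onecut1, a transcription factor that activates Cyp2c12, had 2.78, 2.09, 6.15, 5.88 and 6.75 CPM with vehicle and 15.5, 3.61, 12.7 and 13.9 with FSH. Its log2 fold change was 1.27 (SE 0.43, adjusted p = 0.333), and FSH 2 lay inside the vehicle range. The other 3 of the 5 were Cish, Stat5b and Prlr, named after their values were seen. Cish, another feedback inhibitor, had 11.6 to 70.3 CPM with vehicle and 85.8 to 116 CPM with FSH, without overlap (log2 fold change 1.34, SE 0.47, adjusted p = 0.350). For Stat5b, which carries the signal of the growth hormone receptor to the nucleus, the fitted log2 change was 0.29 (SE 0.11, adjusted p = 0.377). For Prlr, the prolactin receptor, it was 0.58 (SE 0.25, adjusted p = 0.418), with 614 CPM in FSH 1 and 244 to 286 in the other FSH libraries beside 212 to 276 with vehicle.

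Both tested genes of subfamily 2b had fold changes below 0, without a call. Cyp2b3, a constitutive member that does not respond to phenobarbital, had 457, 388, 528, 514 and 578 CPM in the vehicle libraries and 301, 430.1, 419 and 293 CPM in the FSH libraries. FSH 1 and FSH 4 were below every vehicle library, while FSH 2 and FSH 3 were above the lowest, vehicle 2. The means were 493 ± 72.9 (SD, n = 5) and 361 ± 73.9 (SD, n = 4). The log2 fold change was -0.45 (SE 0.15, 95% interval -0.79 to -0.11), with an adjusted p of 0.334 in edgeR and 0.149 in DESeq2. Leaving out any 1 library gave -0.55 to -0.36.

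Cyp2b2, the phenobarbital-inducible member driven by Car, had 10.005, 24.6, 31.9, 21.9 and 19.7 CPM with vehicle and 10.6, 22.97, 16.5 and 8.43 CPM with FSH. FSH 4 was the lowest library, and vehicle 1 was below FSH 1. The log2 fold change was -0.57 (SE 0.34, 95% interval -1.33 to 0.19, adjusted p = 0.568), and -0.88 without FSH 2. Cyp2b12 was below the testing limit and Cyp2b21 was listed at 0. Cyp2b3 supplied 94.0 to 97.9% of the subfamily's counts in the vehicle group and 94.9 to 97.2% in the FSH group, so the 2b sum followed it, at 515 ± 74.4 CPM (SD, n = 5) against 376 ± 80.0 CPM (SD, n = 4).

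Other genes known to respond to Car and Pxr had fold changes of both signs. Of 10 such genes in the table, all tested, 4 were above 0 and 6 below. None was called in edgeR, where 3 were higher and 1 lower at an unadjusted p of 0.05, beside 6.42% and 5.14% of all tested genes, and DESeq2 called 2, Abcb1a and Gsta2. Abcb1a, the drug efflux pump P-glycoprotein, had 92.6, 94.3, 103, 94.6 and 103 CPM with vehicle and 176, 141, 139 and 129 CPM with FSH. The groups did not overlap, and the log2 fold change of Abcb1a was 0.58 (SE 0.09) with an adjusted p of 0.0843 in edgeR and 4.2e-05 in DESeq2. Gsta2, a glutathione transferase, had 7.28, 17.3, 8.94, 5.05 and 7.97 CPM with vehicle and 3.77, 3.57, 4.71 and 3.76 CPM with FSH, also without overlap. The log2 fold change of Gsta2 was -1.24 (SE 0.31), with an adjusted p of 0.219 in edgeR and 0.00898 in DESeq2.

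No 2c gene outside the sex-dependent ones was called. Cyp2c6v1, a constitutive liver P450, had 1922 to 2473 CPM with vehicle and 1875 to 3070.1 CPM with FSH. FSH 1 was the highest and FSH 4 the lowest of all 9, and the log2 fold change was 0.14 (SE 0.14, 95% interval -0.17 to 0.45, adjusted p = 0.750). Cyp2c23, an arachidonic acid epoxygenase, had 1679 to 2442 CPM with vehicle and 1969 to 2582 CPM with FSH (log2 fold change 0.03, SE 0.13, 95% interval -0.25 to 0.31, adjusted p = 0.956). Here FSH 4 was the highest and vehicle 4 the lowest library. Cyp2c22, a retinoic acid hydroxylase, stood at 296 to 738 CPM with vehicle and 344 to 561 with FSH (log2 fold change -0.10, SE 0.25, adjusted p = 0.915). Cyp2c24 had 1 count in all libraries together. Within the subfamily Cyp2c12 held 32.2 to 41.4% of the counts with vehicle and 35.9 to 40.2% with FSH, and Cyp2c6v1 27.7 to 31.1% and 24.0 to 34.1%.

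All 4 genes of subfamily 2d, enzymes that oxidise many basic drugs, had fold changes above 0, with a median of 0.24 that was 0.16 without FSH 1. Cyp2d5 had 528, 487, 493, 506 and 503 CPM in the vehicle libraries and 712, 603, 540.3 and 545 CPM in the FSH libraries. Every FSH library lay above every vehicle library, FSH 1 by the widest margin, also on unscaled library totals. The means were 503 ± 15.8 (SD, n = 5) and 600.1 ± 79.6 (SD, n = 4), and the log2 fold change was 0.25 (SE 0.09, 95% interval 0.05 to 0.46, adjusted p = 0.355). It was 0.16 without FSH 1.

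Cyp2d1, a close relative of Cyp2d5, had 443, 525, 632, 619.7 and 642 CPM with vehicle and 784, 714, 614 and 575 CPM with FSH. FSH 1 and FSH 2 were above the vehicle range and the other FSH libraries inside it (log2 fold change 0.23, SE 0.13, 95% interval -0.07 to 0.53, adjusted p = 0.553). Cyp2d4, a form known chiefly from brain, had 23.2, 17.5, 13.9, 17.2 and 19.9 CPM with vehicle and 34.3, 22.7, 20.4 and 18.7 CPM with FSH. Only FSH 1 exceeded the vehicle range, and the log2 fold change of 0.39 (SE 0.19, adjusted p = 0.464) was 0.17 without it. Cyp2d2, the debrisoquine hydroxylase, was the member with the least spread among vehicle libraries, with 1490.3, 1478, 1478, 1496 and 1438 CPM with vehicle and 1546, 1349, 1478 and 1610.3 CPM with FSH. Its highest vehicle library was 1.04 times its lowest, and its log2 fold change was 0.02 (SE 0.08, 95% interval -0.15 to 0.19, adjusted p = 0.950).

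Summed over the subfamily, 2d reached 2485, 2508, 2617, 2639 and 2603 CPM with vehicle and 3076, 2689, 2653 and 2749.7 CPM with FSH. The groups did not overlap in these scaled sums, with FSH 3 just above vehicle 4. As a share of unscaled library totals they did, at 0.240 to 0.274% with vehicle and 0.272 to 0.287% with FSH. The log2 ratio of the means was 0.12, or 0.07 without FSH 1. FSH 1 also had the highest share of counts in albumin, 19.4%, beside 10.5 to 16.7% in the other libraries, and the part of this in the 2d values was not tested.

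Cyp2d1 and Cyp2d5 are shown because their upstream stretches are nearly the same, the most alike of the pairs compared. Pairs were compared within a subfamily only, and kept where at least 100 columns aligned. Capitals mark the 14 bases that differ within the aligned part, which runs from base 36 of the Cyp2d1 stretch and base 1 of the Cyp2d5 stretch (RefSeq, build GRCr8, 250 bases before the start, 5′ to 3′).
Cyp2d1, chr7:115793431-115793680, minus strand: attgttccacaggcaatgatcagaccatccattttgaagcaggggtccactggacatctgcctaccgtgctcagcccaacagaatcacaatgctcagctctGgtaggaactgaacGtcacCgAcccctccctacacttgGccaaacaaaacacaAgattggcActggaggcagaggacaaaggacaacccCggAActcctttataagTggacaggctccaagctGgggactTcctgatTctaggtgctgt
Cyp2d5, chr7:115784488-115784737, minus strand: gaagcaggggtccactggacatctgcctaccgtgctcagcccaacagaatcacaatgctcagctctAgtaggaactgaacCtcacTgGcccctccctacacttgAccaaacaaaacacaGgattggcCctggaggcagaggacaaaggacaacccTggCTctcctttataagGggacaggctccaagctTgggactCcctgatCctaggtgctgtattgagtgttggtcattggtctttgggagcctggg
Of 215 aligned bases 201 were identical (93.5%) with no gap, and the next most alike pair, Cyp2b21 and Cyp2b3, reached 73.3% of 240 aligned columns, of which 13 held a gap. Closely related genes can share reads, and the split of counts between Cyp2d1 and Cyp2d5 is uncertain. The stretches shown lie before the start, so their likeness does not measure this, and the transcripts were not compared.

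**Figure D4:**
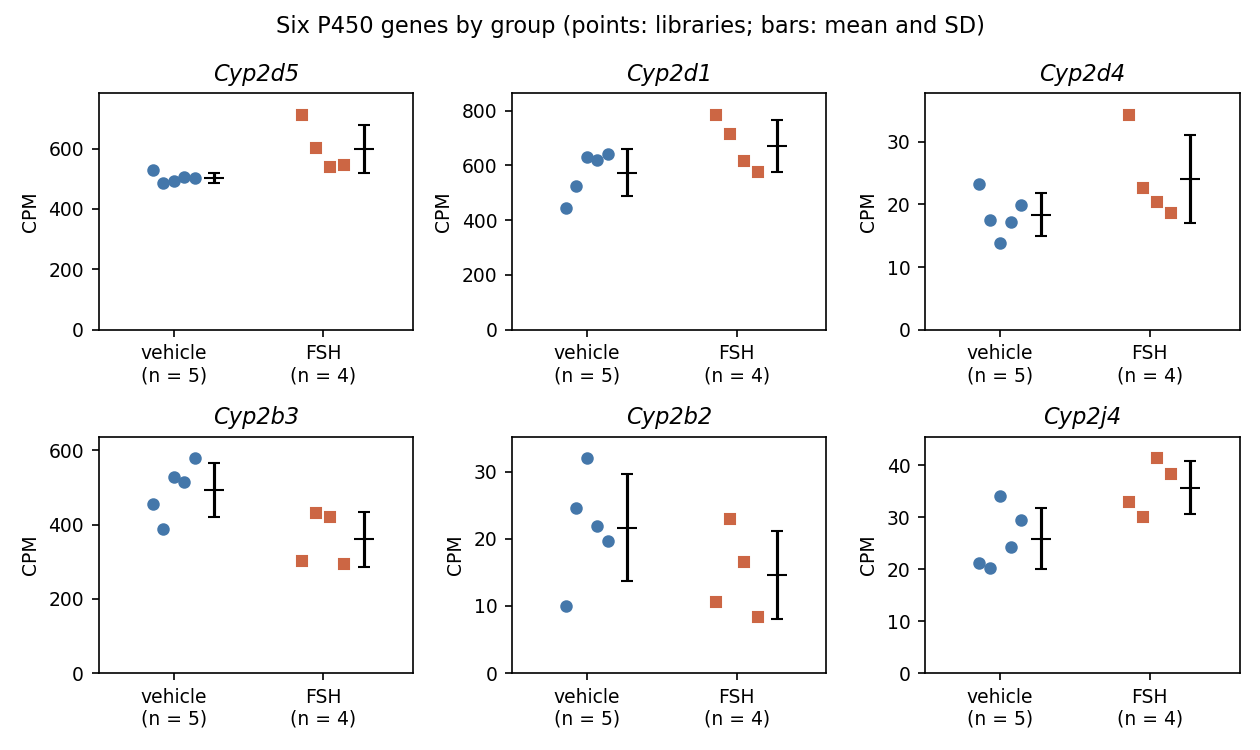
CPM (vertical axes, from 0) of Cyp2d5, Cyp2d1, Cyp2d4, Cyp2b3, Cyp2b2 and Cyp2j4 in the vehicle (n = 5) and FSH (n = 4) groups; points are libraries and the marks beside them the mean and SD. The groups are apart only for Cyp2d5 (487 to 528 against 540.3 to 712 CPM), and overlap for the other genes shown.

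Cyp2e1, the ethanol- and acetone-inducible enzyme of pericentral hepatocytes, varied among animals more than between groups. It had 5428, 6576, 6181, 3336 and 5328 CPM with vehicle and 6083, 4948, 4395 and 4738 CPM with FSH (log2 fold change -0.09, SE 0.19, 95% interval -0.50 to 0.32, adjusted p = 0.889). Vehicle 4 was the lowest of all libraries and vehicle 2 the highest. Of 8 other tested pericentral genes, vehicle 4 was the lowest vehicle library in 6 and vehicle 2 the highest in 5. Named after their values were seen, the glutamine synthetase Glul had 436 CPM in vehicle 4 and 1051 in vehicle 2, beside 493 to 688 in the other vehicle libraries. The Wnt target Axin2 had 9.16 CPM in vehicle 4 and 19.5 in vehicle 2, beside 10.8 to 11.6. Vehicle 4 was likewise the lowest vehicle library in 4 of 9 periportal genes, with their lowest sum, 10381 CPM beside 11476 to 17466 in the other vehicle libraries. Vehicle 4 was also the lowest vehicle library for Cyp1a2, Cyp2c6v1, Cyp2c22 and Cyp2c23, and for Cyp1a1 and Cyp2s1, which had few counts. In the remaining tested members another vehicle library was the lowest. Between the groups, in edgeR and DESeq2 alike, none of 8 tested pericentral genes other than P450s was called, with a median log2 fold change of -0.13, and none of 9 periportal genes, with a median of -0.19.

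Cyp2j4, the only tested gene of its subfamily, had the highest fold change of the members. Cyp2j4, an arachidonic acid epoxygenase of gut and liver, had 21.2, 20.2, 34.2, 24.3 and 29.4 CPM in the vehicle libraries and 33.0, 30.1, 41.3 and 38.3 CPM in the FSH libraries. FSH 3 and FSH 4 were above the vehicle range, and vehicle 3 was above FSH 1 and FSH 2. The means were 25.9 ± 5.86 (SD, n = 5) and 35.7 ± 5.07 (SD, n = 4). The log2 fold change was 0.46 (SE 0.16, 95% interval 0.11 to 0.82, adjusted p = 0.337), and 0.38 to 0.59 with any 1 library left out.

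Cyp2r1, a vitamin D 25-hydroxylase, had 8.80 to 11.8 CPM with vehicle and 8.17 to 10.8 CPM with FSH (log2 fold change -0.16, SE 0.11, adjusted p = 0.612). Cyp2f4, a naphthalene-oxidising enzyme best known from lung, had 44.4 to 60.1 CPM with vehicle and 39.9 to 61.9 CPM with FSH (log2 fold change -0.18, SE 0.14, adjusted p = 0.662). Cyp2t1 had 43.5 to 59.5 CPM with vehicle and 43.5, 48.7, 46.7 and 76.1 CPM with FSH, so that FSH 4 alone was above the vehicle range (log2 fold change 0.11, SE 0.17, adjusted p = 0.844). Cyp2s1 and Cyp2u1, expressed mainly outside the liver, stayed at 0.432 to 1.41 CPM and 0.964 to 2.34 CPM over all 9 libraries, with log2 fold changes of 0.09 (SE 0.34) and 0.04 (SE 0.29).

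Subfamily 3a, the group that holds the major human drug-metabolising P450, was low by count in these livers. Cyp3a18, described as male-predominant, had 31.2, 43.0, 27.7, 31.7 and 31.3 CPM with vehicle and 19.4, 31.9, 48.1 and 33.7 CPM with FSH. FSH 1 was the lowest and FSH 3 the highest of all 9, and the log2 fold change was 0.01 (SE 0.22, 95% interval -0.48 to 0.50, adjusted p = 0.991). Cyp3a9, a female-predominant member, had 3.35, 6.16, 5.94, 5.29 and 5.85 CPM with vehicle and 5.12, 6.78, 8.02 and 6.66 CPM with FSH. In it 3 FSH libraries exceeded the vehicle range and FSH 1 did not (log2 fold change 0.32, SE 0.19, 95% interval -0.09 to 0.73, adjusted p = 0.559). Cyp3a23/3a1, the classic Pxr-inducible rat gene, had counts of 1, 6, 25, 3 and 1 with vehicle and 0, 7, 9 and 2 with FSH, and was not tested. Cyp3a18 supplied 80.2 to 89.9% of the subfamily's counts with vehicle and 78.9 to 85.0% with FSH.

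Spread among animals of a group differed widely by gene. The highest vehicle library was 1.04 times the lowest for Cyp2d2 and 1.08 times for Cyp2d5, but 2.90 times for Cyp1a2, 3.19 times for Cyp2b2 and 3.98 times for Cyp1a1, the last with few counts. FSH 1 was the highest of the 9 libraries in 7 of the 23 tested members, and FSH 4 the lowest in 6 and the highest in 4. Taking the members' median, no library stood far off: the median deviation of a library from the vehicle mean stayed between -0.06 and 0.09 on the log2 scale.

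**Figure D5:**
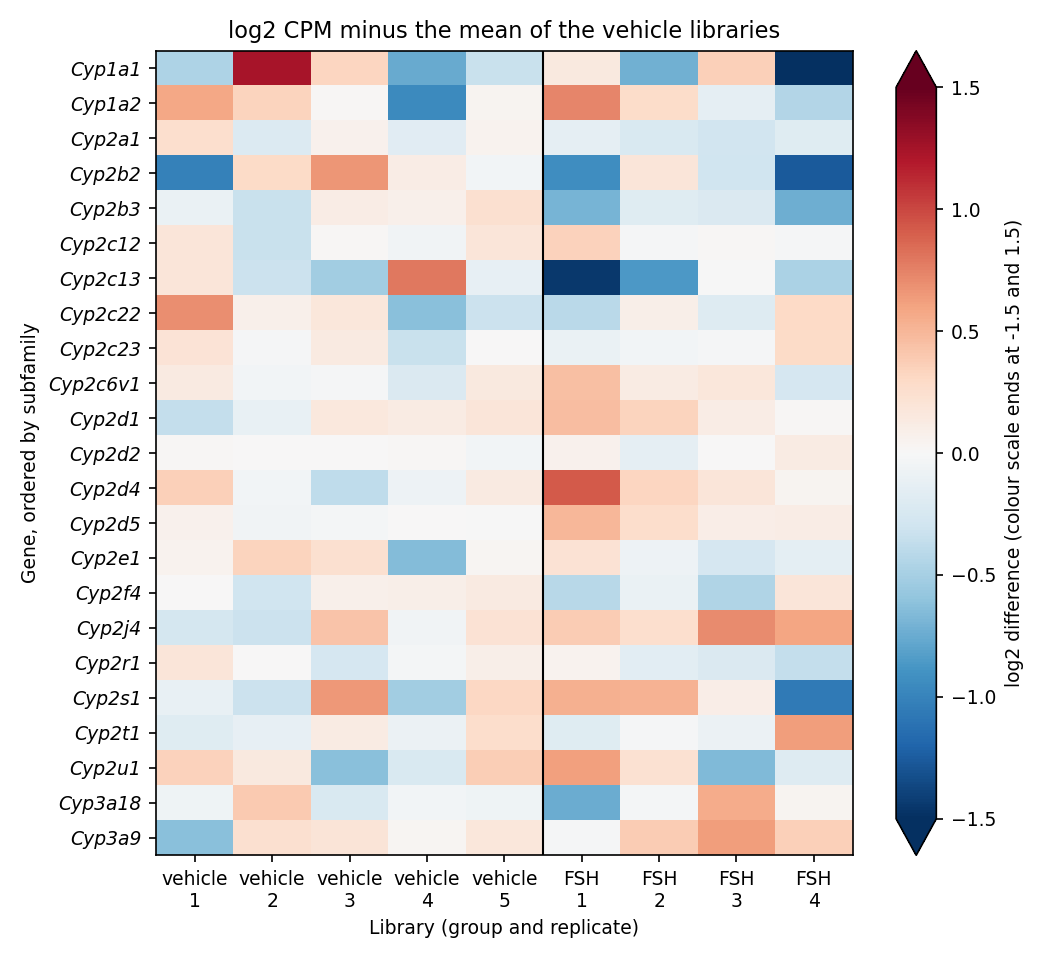
Difference of each library's log2 CPM from the mean of the vehicle libraries (colour, scale ending at -1.5 and 1.5) for the 23 tested P450 genes (rows, by subfamily) in the 5 vehicle and 4 FSH libraries (columns). Of 207 values 1 lies beyond the scale, Cyp1a1 in FSH 4 at -1.85, and the columns of a group are mixed in colour for most genes.

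The enzymes and factors that serve these P450s held no gene called in edgeR or DESeq2. Of 8 tested electron partners and associated enzymes, 3 had fold changes above 0 and 5 below. Por, the reductase that all microsomal P450s depend on, had 546, 536, 484, 339 and 376 CPM with vehicle and 479, 464, 467 and 435 CPM with FSH (log2 fold change 0.01, SE 0.14, adjusted p = 0.983). Ephx1, the microsomal epoxide hydrolase, had 668, 696, 770.2, 933 and 808 CPM with vehicle and 399, 736, 570.0 and 566 CPM with FSH (log2 fold change -0.45, SE 0.17, adjusted p = 0.358). In Ephx1, 3 FSH libraries were below the vehicle range and FSH 2 was inside it. Of 11 genes of haem synthesis and breakdown, 4 had fold changes above 0 and 7 below, with a median of -0.07, and 1, Cpox, an enzyme late in haem synthesis, passed an unadjusted p of 0.05 in edgeR (log2 fold change -0.29, SE 0.11, adjusted p = 0.363).

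Of 22 transcriptional regulators of P450 genes, 21 were tested, 13 had fold changes above 0 and 8 below, and the median was 0.06. Their summed level was 2148 to 2468 CPM with vehicle and 2500 to 2667 CPM with FSH, without overlap. In none of the 21 taken singly were the groups apart, beside 4.11% of all tested genes. How often sums of other genes lie apart was not tested. Nr0b2, a repressor of bile acid synthesis and of several nuclear receptors, had 52.6, 45.0, 40.5, 16.2 and 46.5 CPM with vehicle and 25.8, 26.9, 19.9 and 24.5 CPM with FSH. All vehicle libraries except vehicle 4 were above all FSH libraries (log2 fold change -0.72, SE 0.27, adjusted p = 0.367). The receptors themselves, named after their values were seen, had log2 fold changes of -0.28 (SE 0.24) for Ahr, 0.21 (SE 0.14) for Nr1i2 and 0.57 (SE 0.45) for Nr1i3. Nr1i3, which encodes Car, had 2.93, 15.1, 8.80, 8.17 and 7.07 CPM with vehicle and 20.3, 15.6, 9.95 and 4.54 CPM with FSH. Its levels overlapped between the groups, with FSH 1 highest and vehicle 1 lowest.

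Upstream stretches were matched by symbol in RefSeq for 31 of the 34 members, and 5 short motifs were searched on either strand in the 250 bases before the start. TATAAA was found in 11 of 31 (35.5%), beside 13.1% of 27457 promoters of all genes. The nuclear receptor core AGGTCA was found in 11 (35.5%) beside 13.7%, and the C/EBP core TTGCNNAA in 12 (38.7%) beside 9.20%. The STAT core TTCNNNGAA was found in 2, Cyp2j4 and Cyp2t1 (6.45%), beside 7.52%, and the Ahr core GCGTG in 6 (19.4%) beside 27.2%. Motifs overlapping one another were each counted. These are matches of letters in a short window, in another build than that of the counts, and are given as a description.

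Neighbouring detoxification families gave these values in the same fit. Of 13 Cyp4 fatty acid hydroxylases 8 were tested, with none called in edgeR and 1 higher in DESeq2, Cyp4a2. The median log2 fold change was 0.03, with Cyp4a2 at 0.91 (SE 0.19, adjusted p = 0.175 in edgeR). Of 34 conjugating enzymes of the UGT, SULT and GST families 26 were tested, with none called in edgeR and 2 lower in DESeq2, Gsta2 and Gstt1. Over all genes DESeq2 called 1.64% of those with an adjusted p, in either direction. Gsta2 is the same gene as in the list of Car and Pxr targets, so its call is given in both places. Of the 26, 5 had fold changes above 0 and 21 below, beside 50.5% above 0 among all tested genes, and the median was -0.27. The difference from the P450 members was not tested.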

How the data were processed

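Messenger RNA of liver from 9 rats (4 FSH, 5 vehicle, 1 library per animal) was sequenced from both fragment ends in libraries that keep strand, per the labels' protocols. The authors deposited whole-number read counts per gene, not normalised. STAR, edgeR, DESeq2 and the build rn6 are named in the submitters' processing notes. The sources used here give neither annotation nor strand setting, nor how reads shared by similar genes were handled.

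From these counts, R 4.3.3 with edgeR 4.0.16 was run on the whole table: filterByExpr by group kept 11924 genes with 99.96% of counts, libraries were scaled by TMM, and the quasi-likelihood F-test (two-sided) compared FSH with vehicle. p-values were adjusted by Benjamini-Hochberg over all tested genes, with a threshold of 0.05. Standard errors come from the fold change and its F statistic, and 95% intervals are not adjusted. CPM are counts per 1000000 of the TMM-scaled library total. Sums and shares used counts of the members. No library repeated another: within groups, chi-square over its degrees of freedom was at least 27.1. p-values measure the spread between these animals.

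Alternatives were DESeq2 1.42.0, other scalings, other low-count filters, a threshold of 0.10, a replicate block and leaving out each library. Members and lists were chosen with earlier results of these data known. Named were members of the sex-dependent, Ahr-induced and Car- or Pxr-induced sets, the member with the highest mean CPM of each subfamily, the 8 smallest p, the 4 highest and 4 lowest fold changes at a mean of at least 1 CPM, Cyp2e1, Cyp2r1 and Cyp2u1, and from each other list the 2 smallest p; other members are given by range. One result that this rule would name is not reported here. Promoter stretches are from RefSeq, matched by symbol, without Cyp1a1, Cyp2c6v1 and Cyp3a23/3a1.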

Additional observations from a re-analysis of the deposited data

Results flagged for a closer look

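Libraries that stood apart from the rest of their group, by the gap between the extreme library and its neighbour relative to the whole range, were found in 6 of 60 sets of values. For independent sets chance would give about 1 in 20, or 3. These sets are not independent, because the sums hold genes that were also taken singly, so the 6 cannot be weighed against the 3. Cyp2c12 was highest in FSH 1 at 3615 CPM, with the next FSH library at 2875, and with it the summed 2c level in FSH 1 at 8999 CPM, with the next at 7888. Cyp2t1 was highest in FSH 4 at 76.1 CPM, with the next at 48.7. Cyp3a18 was highest among vehicle libraries in vehicle 2 at 43.0 CPM, with the next at 31.7, and with it the summed 3a level at 49.5 CPM, with the next at 37.4. The summed level of families 1 to 3 was lowest in vehicle 4 at 14750 CPM, with the next vehicle library at 18735. No cause was tested.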

How the results depend on the processing

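No member was called in either direction under DESeq2, other scalings, no filter, a filter of at least 1 CPM in 4 libraries, a threshold of 0.10, the replicate block or with any 1 library left out, and the smallest adjusted p of a member ran from 0.149 (Cyp2b3, DESeq2) to 0.449 (Cyp2b3, without vehicle 1). Over all genes edgeR called 3 higher and 1 lower, DESeq2 115 and 69, and a threshold of 0.10 gave 9 and 3. The median log2 fold change of the members, 0.03, lay between -0.034 (without vehicle 4) and 0.065 (without vehicle 1) with a library left out, also -0.02 without FSH 1 and -0.02 without FSH 4, so its sign rests on single libraries. The 2c median, 0.03, was -0.10 with no filter, when low-count genes entered, and -0.066 (without FSH 4) to 0.11 (without vehicle 1) with a library left out. The 2d median, 0.24, was 0.16 to 0.30, and the log2 ratio of 2d sums, 0.12, was 0.070 to 0.14, both lowest without FSH 1. The log2 ratio of 2t sums, 0.11, was -0.105 to 0.20, lowest without FSH 4. The cause of these shifts was not tested. Replicate numbers did not pair the samples: deviations of same-numbered libraries correlated at -0.04 to 0.04 over 4 pairs, and 0 of 4 vehicle libraries correlated best with their own number. With a replicate block (vehicle 5 left out) no member was called and their median was 0.03. Depth limits Cyp1a1, Cyp1b1, Cyp2b12, Cyp2c11, Cyp2c13, Cyp2c24, Cyp2s1, Cyp2u1, Cyp3a2 and Cyp3a23/3a1, which had few counts. The group sizes limit all members. The DESeq2 counts of the other lists and the overlap on unscaled totals were added after the data were seen.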
